A study of Mus musculus with 4 samples.

Results

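Insulin receptor signalling was followed here through 10 genes in brown adipose tissue (BAT) of adult mice. They are the receptor gene Insr, the docking proteins Irs1 and Irs2, the PI3-kinase regulatory subunit Pik3r1, the kinases Akt1 and Akt2, the effectors Foxo1 and Tbc1d4, and the inhibitory adaptors Grb10 and Grb14. The genes were picked by symbol, not by their measured levels, and each symbol matched 1 of the 55387 gene rows that the 4 libraries share. RNA was sequenced from BAT of 15-week-old male C57BL/6 mice, 1 library per mouse, with 2 Sox4f/f mice and 2 littermates labelled Sox4-MKO. Sox4f/f mice carry loxP-flanked Sox4 alleles and are entered as WT in the sample labels. Sox4-MKO mice carry the same alleles and a Myf5-Cre transgene, which is active in the precursors that brown adipocytes share with skeletal muscle, and whether the Sox4f/f littermates carried any Cre is not given in the sources used here. The comparison asks which transcripts differ in BAT when Sox4, a high-mobility-group transcription factor, is deleted in that lineage.

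Insulin bound to its receptor tyrosine kinase leads to phosphorylation of the IRS docking proteins, which recruit PI3-kinase through its regulatory subunit. The lipid that PI3-kinase makes brings AKT to the membrane, where AKT phosphorylates TBC1D4 (AS160), allowing GLUT4 vesicles to reach the cell surface, and FOXO1, which then leaves the nucleus. BAT is among the most insulin-sensitive tissues of the mouse, and insulin drives its glucose uptake and fat synthesis. Much of this control acts on phosphorylation and location of the proteins, neither of which RNA levels measure.

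Sox4 did not follow the labels. It stood at 1.98 FPKM (fragments per kilobase, scaled to library depth) in Sox4f/f mouse 1, at 1.06 in Sox4f/f mouse 2, at 0.981 in the first mouse labelled Sox4-MKO and at 3.06 in the second. Sox4 was thus highest in a library labelled Sox4-MKO, and its log2 fold change was 0.20 (SE 0.43, limma adjusted p = 0.843), or -0.32 without the second mouse labelled Sox4-MKO. These libraries are therefore called MKO-labelled, and each direction given here is that of the labels. Sox4 was low, its mean of 1.77 FPKM over the libraries standing above only 13.3% of tested genes. The study reported SOX4 protein much reduced in BAT of other, younger Sox4-MKO mice. The lowest values in each library, taken as 1 fragment, put the depth at about 12100000 to 16200000 fragments, and in 3 libraries other starting points of the estimate gave as few as 5600000 to 6300000. Depending on which annotated protein-coding transcript gives the length, Grb10 in Sox4f/f mouse 2 rested on about 28 to 333 fragments, the fewest of any member. The labels give the cell type as adipocytes, but endothelial, macrophage and muscle markers were present in every library, as in whole tissue. Markers of brown adipocytes and of some other cells moved with the genotype labels. Summed FPKM of the general adipocyte list overlapped, at 9810 and 10308 in Sox4f/f mice against 8759 and 11799. In that list 3 of 7 genes were lower without overlap and 0 higher. Of all tested genes, 29.6% were lower and 21.7% higher without overlap. The sums of the endothelial, lymphocyte and erythroid lists overlapped too. Those of the white adipocyte list did not, at 209 and 165 against 507 and 591 FPKM, with 2 of 6 genes higher without overlap and 0 lower. The Schwann cell list summed to 40.4 and 18.6 against 63.6 and 46.4 FPKM, with 3 of 4 genes higher without overlap. Summed FPKM of the 14 skeletal muscle markers was 335 and 1122 in Sox4f/f tissue but 20001 and 4063 in MKO-labelled tissue, with 13 of 14 higher without overlap. The 9 brown adipocyte markers summed to 7135 and 6946 FPKM in Sox4f/f mice against 3443 and 4193 FPKM, and 6 of 9 were lower without overlap. All 8 macrophage markers and all 7 stromal markers were higher in both MKO-labelled libraries, summing to 194 and 285 against 407 and 395 FPKM and to 306 and 357 against 746 and 686 FPKM. The part of these shifts in the values of the insulin pathway genes was not tested. In bulk tissue, fewer cells of a type and less RNA per cell cannot be told apart.

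**Figure D1:**
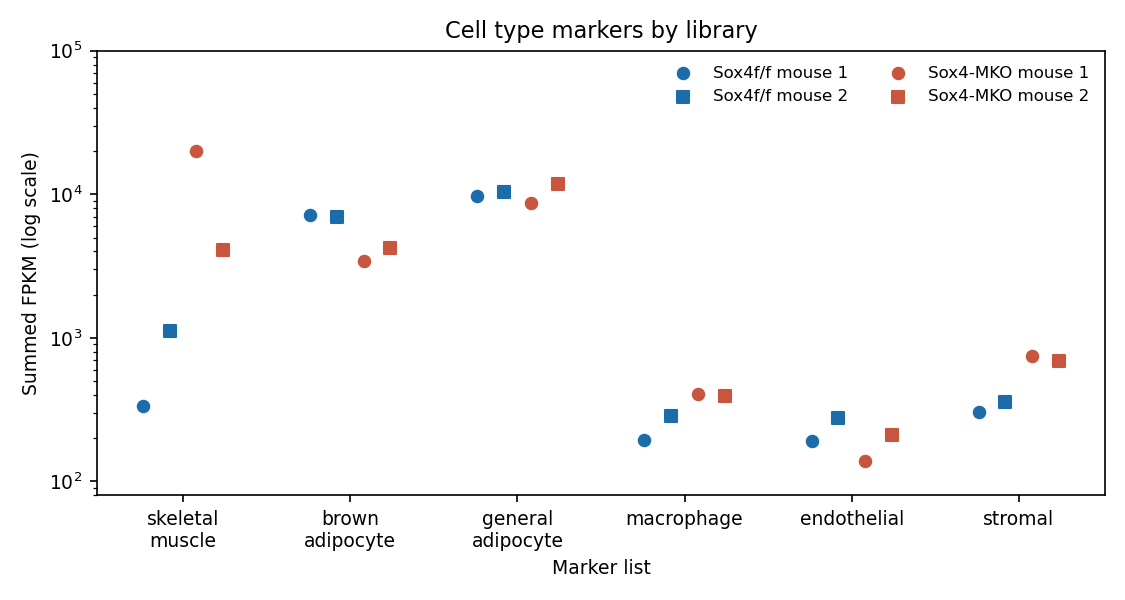
Summed FPKM of the skeletal muscle, brown adipocyte, general adipocyte, macrophage, stromal and endothelial marker lists (log axis) in the 4 libraries, 1 point per library. The skeletal muscle list spans 335 to 20001 FPKM and is highest in the first MKO-labelled mouse, while the brown adipocyte list is lower in both MKO-labelled mice.

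All 10 members stood above 1 FPKM in every library, and thus passed the limit for testing, a mean above 1 FPKM in at least 1 genotype. Fold changes are differences of mean log2(FPKM + 1), MKO-labelled minus Sox4f/f, from a limma fit over 12877 genes. None of the 10 members passed an adjusted p of 0.05, and neither did any of the 12877 genes (0%), the smallest adjusted p being 0.191. At an unadjusted p under 0.05, 2 of 10 members differed, both higher in the MKO-labelled libraries, where 16.2% of all tested genes differed 7.95% higher and 8.28% lower. The values of the 2 genotypes did not overlap in 4 of 10 members, 3 higher and 1 lower, where 51.3% of all tested genes did not overlap. Per length, mean levels over the 4 libraries ran from 9.47 FPKM for Irs1 and 9.56 for Grb10 to 34.9 for Pik3r1, 35.4 for Akt1 and 186 for Akt2, and Akt2 alone stood apart from its neighbours in every library. Neither share of members stood far from its background. The median log2 fold change was -0.10 over the members and -0.05 over all tested genes. Among all genes, 1024 were higher and 1066 lower at an unadjusted p under 0.05, and with FPKM rescaled to leave out mitochondrially encoded genes and Ucp1 the split was 1322 to 746.

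**Figure D2:**
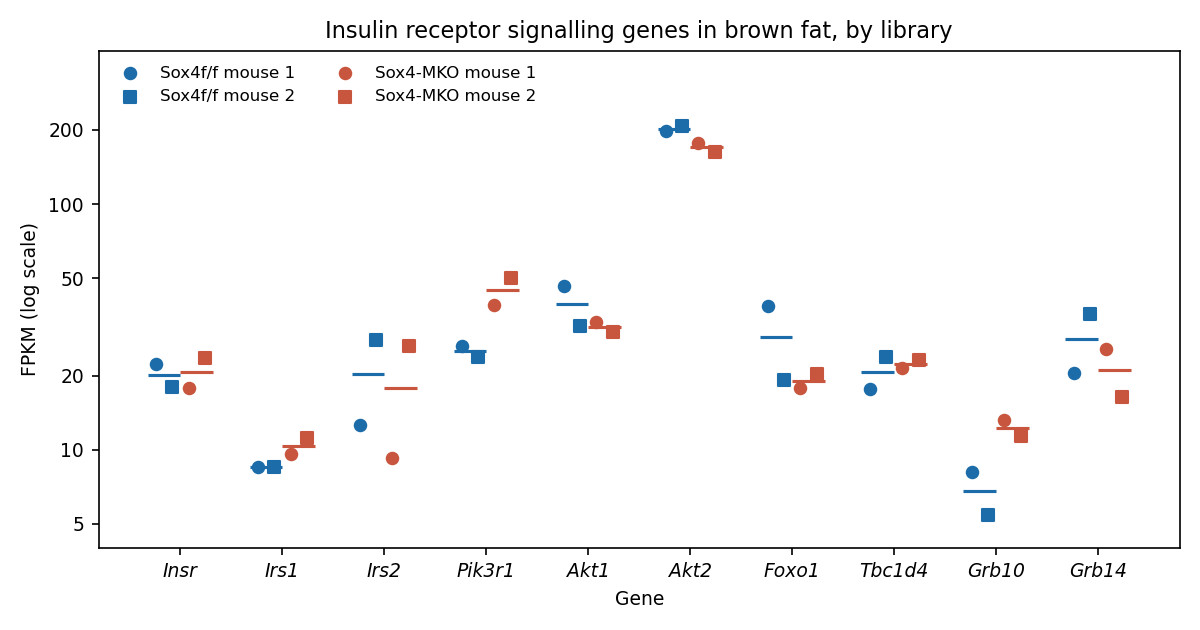
FPKM of each of the 10 insulin signalling genes (log axis) in the 4 libraries, 1 point per mouse, with Sox4f/f and MKO-labelled libraries marked apart. Lines are group means, Akt2 has the highest level, Pik3r1 and Grb10 sit higher in both MKO-labelled mice, and Irs2 splits the 2 mice of each genotype instead.

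Insr, the receptor that starts the pathway, differed less between the genotypes than between mice of a genotype. It measured 22.4 and 18.0 FPKM in Sox4f/f mice and 17.9 and 23.7 FPKM in MKO-labelled mice. The highest and the lowest value both came from MKO-labelled mice, so the genotypes overlapped fully. The group means were 20.2 ± 3.09 and 20.8 ± 4.08 FPKM (SD, n = 2 each), and the log2 fold change was 0.04 (SE 0.20, limma adjusted p = 0.938). The 95% interval of that difference ran from -0.49 to 0.56, so a change of up to about that size in either direction stays possible. Insr lies on chromosome 8 (mm10, 3122061 to 3279617, minus strand). Its level stood above that of 73.5% of tested genes. The 3 genes nearest to Insr in their log2(FPKM + 1) profile over the 4 libraries, centred on the mean, were Ndufaf2, an assembly factor of respiratory complex I, Slc25a32, a mitochondrial carrier, and Katnal1, a katanin-like microtubule-severing protein. Their Euclidean distances to Insr were 0.0414, 0.0536 and 0.0573 on the log2 scale. With 4 libraries and 12877 genes such near matches are a description only. Igf1r, the related receptor for insulin-like growth factor, stood far under Insr on the per-length scale, at 2.98 and 2.89 FPKM in Sox4f/f mice and 3.21 and 2.58 FPKM in MKO-labelled mice, with a log2 fold change of -0.02 (SE 0.19).

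Irs1 and Irs2 are the main docking proteins of the receptor, and their transcripts varied in different ways. Irs1 (chromosome 1, 82233101 to 82291416) was nearly identical in the Sox4f/f mice, at 8.51 and 8.56 FPKM, and was at 9.61 and 11.2 FPKM in MKO-labelled mice. Both MKO-labelled values lay above both Sox4f/f values, the means being 8.54 ± 0.0353 and 10.4 ± 1.13 FPKM (SD, n = 2 each). The difference did not pass the test, with a log2 fold change of 0.25 (SE 0.15, limma adjusted p = 0.454). Irs2 (chromosome 8, 10984681 to 11008458) measured 12.6 and 28.1 FPKM in Sox4f/f mice and 9.25 and 26.6 FPKM in MKO-labelled mice. The 2 mice of a genotype thus differed 2.22-fold in Sox4f/f and 2.87-fold in MKO-labelled tissue, far more than the genotypes did. The means were 20.3 ± 10.9 and 17.9 ± 12.3 FPKM, and the log2 fold change of -0.24 had a 95% interval from -1.84 to 1.35. The residual spread of Irs2 within genotypes was larger than that of 96.5% of tested genes, against 22.7% for Irs1. Irs2 was low in mouse 1 and high in mouse 2 of both genotypes. Other pathway genes, picked out after their values were seen, had the same order of mice. Irs3, a rodent docking protein, was at 18.0 and 47.0 FPKM in Sox4f/f mice and at 14.9 and 33.9 FPKM in MKO-labelled mice. Sgk1, a kinase related to AKT, was at 46.3 and 79.1 against 45.9 and 71.9 FPKM, and Ccng2, a FoxO target of the cyclin G family, at 29.6 and 46.2 against 19.5 and 40.1 FPKM. The ratio of Irs1 to Irs2 was 0.674 and 0.305 in Sox4f/f mice and 1.04 and 0.422 in MKO-labelled mice, overlapping between genotypes (exact permutation test, p = 0.667).

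The promoters of Irs1 and Irs2 are shown because both hold the same short motifs although the transcripts varied differently. Each is the 250 bases before the RefSeq transcript start (GRCm38.p6), 5′ to 3′ on the gene's strand, at chr1:82291440-82291689 for Irs1 and chr8:11008930-11009179 for Irs2, both on the minus strand. Capitals mark TGTTTTG, the core of the insulin response element, and CACGTG, the E-box, both searched on either strand.
Irs1 promoter: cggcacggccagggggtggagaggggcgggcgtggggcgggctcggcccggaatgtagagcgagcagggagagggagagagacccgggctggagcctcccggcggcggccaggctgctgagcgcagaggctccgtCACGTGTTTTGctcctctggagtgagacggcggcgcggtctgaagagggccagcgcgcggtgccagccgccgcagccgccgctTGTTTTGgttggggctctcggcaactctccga
Irs2 promoter: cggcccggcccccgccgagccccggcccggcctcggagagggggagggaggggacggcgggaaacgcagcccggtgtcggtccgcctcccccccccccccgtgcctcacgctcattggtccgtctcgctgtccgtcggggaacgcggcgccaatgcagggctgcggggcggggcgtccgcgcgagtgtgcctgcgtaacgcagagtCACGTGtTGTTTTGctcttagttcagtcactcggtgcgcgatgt
The insulin response element core began 111 and 32 bases before the start of Irs1 and 37 bases before that of Irs2. The E-box lay 115 bases before the start in Irs1, where it overlaps the upstream core, and 44 bases before it in Irs2. Of 32851 promoters of this length, 5.56% held the insulin response element core and 6.02% held the E-box. A match says only that these letters occur there. RefSeq gave 15 promoters for 9 of the 10 members, and none of the other 13 held either motif.

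Pik3r1 encodes the alpha regulatory subunit of class I PI3-kinase, which binds phosphorylated IRS proteins and holds the catalytic subunit. It was the member with the smallest p. Pik3r1 was at 26.4 and 23.9 FPKM in Sox4f/f mice and at 39.0 and 50.2 FPKM in MKO-labelled mice. The genotypes did not overlap, and the lowest MKO-labelled value stood well above the highest Sox4f/f value. The means were 25.1 ± 1.74 and 44.6 ± 7.92 FPKM (SD, n = 2 each), a ratio of 1.77. The log2 fold change was 0.79 (SE 0.17, 95% interval 0.35 to 1.24), with a limma adjusted p = 0.211 over all tested genes, so it did not pass correction. Its size exceeded that of 90.7% of tested genes. The fold change was 0.97 without the first MKO-labelled mouse and as low as 0.61 without the second. Without Sox4f/f mouse 2 it was 0.72 and the unadjusted limma p rose to 0.0535. Muscle marker signal was higher in both MKO-labelled libraries, and its part in the Pik3r1 values was not tested. Pik3r1 lies on chromosome 13 (101680563 to 101768217, minus strand).

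Of the other subunits of PI3-kinase, only Pik3cb had an unadjusted p under 0.05. Pik3cb, the beta catalytic subunit, was at 3.77 and 4.39 FPKM in Sox4f/f mice and at 7.28 and 9.57 FPKM in MKO-labelled mice. Its log2 fold change was 0.88 (SE 0.20, limma adjusted p = 0.214), the largest of the 5 other subunits listed. Pik3ca, the alpha catalytic subunit, was at 10.4 and 9.21 against 10.8 and 11.2 FPKM. Over the 5 subunits the median log2 fold change was 0.19, 3 were higher without overlap, against 21.7% of all tested genes, and 1 had an unadjusted p under 0.05, against 16.2%. With 5 genes these shares are a description only. The ratio of Pik3r1 to the sum of Pik3ca and Pik3cb, a measure of regulatory against catalytic transcript per length, was 1.86 and 1.76 in Sox4f/f mice and 2.16 and 2.41 in MKO-labelled mice. The difference was 0.34 on the log2 scale (exact permutation test, p = 0.333, the smallest that 2 against 2 mice allow).

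Pik3r1 has 2 RefSeq promoters, for a long and a short form of the subunit, and gene-level FPKM cannot tell their transcripts apart. Promoter 1 is at chr13:101768218-101768467 and promoter 2 at chr13:101692631-101692880, both GRCm38.p6 and minus strand, and capitals mark ACAAAG, a core of Sox binding sites, found on either strand.
Pik3r1 promoter 1: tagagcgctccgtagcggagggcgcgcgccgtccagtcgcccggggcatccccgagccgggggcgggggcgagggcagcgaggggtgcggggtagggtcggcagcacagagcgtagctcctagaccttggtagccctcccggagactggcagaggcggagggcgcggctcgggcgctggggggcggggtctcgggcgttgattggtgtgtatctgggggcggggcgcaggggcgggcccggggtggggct
Pik3r1 promoter 2: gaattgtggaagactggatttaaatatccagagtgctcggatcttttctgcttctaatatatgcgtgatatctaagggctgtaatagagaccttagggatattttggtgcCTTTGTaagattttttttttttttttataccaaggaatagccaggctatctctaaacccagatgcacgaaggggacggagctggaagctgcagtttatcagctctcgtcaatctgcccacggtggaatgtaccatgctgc
The Sox core was found once, in promoter 2 and on the opposite strand, 140 bases before the start. Of all promoters of this length 16.5% held it, so the match is common, and it says nothing of whether a factor binds there. Of the members' 15 promoters, 3 held it, the others belonging to Akt2.

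Akt1 and Akt2 carry the signal from PI3-kinase, Akt2 being the form most tied to glucose uptake in fat. Akt2 (chromosome 7, 27591552 to 27640826) was the most abundant member per length, above 96.8% of tested genes, at 199 and 207 FPKM in Sox4f/f mice and 178 and 162 FPKM in MKO-labelled mice. Both MKO-labelled values were lower, and Akt2 was the 1 member lower without overlap. The means were 203 ± 6.05 and 169.8 ± 11.1 FPKM (SD, n = 2 each), and the log2 fold change was -0.26 (SE 0.11, limma adjusted p = 0.356), with an interval from -0.56 to 0.05. Akt1 (chromosome 12, 112653821 to 112674884) was at 46.5 and 31.8 FPKM in Sox4f/f mice and at 33.1 and 30.2 FPKM in MKO-labelled mice. Its genotypes overlapped, since Sox4f/f mouse 2 matched the MKO-labelled mice and Sox4f/f mouse 1 stood apart. The log2 fold change of Akt1 was -0.27 (SE 0.21, limma adjusted p = 0.549), and was -0.01 without Sox4f/f mouse 1 and -0.54 without Sox4f/f mouse 2, where the unadjusted limma p was 0.0478. Akt1 per Akt2 was 0.234 and 0.154 in Sox4f/f mice and 0.187 in each MKO-labelled mouse, which lay between them (exact permutation test, p = 1.000).

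Foxo1, the transcription factor that AKT excludes from the nucleus, depended on 1 library as Akt1 did. Foxo1 (chromosome 3, 52268336 to 52353221) measured 38.6 and 19.3 FPKM in the Sox4f/f mice, while the MKO-labelled mice had 17.8 and 20.4 FPKM. The second Sox4f/f mouse lay between the MKO-labelled mice. The means were 28.9 ± 13.7 and 19.1 ± 1.85 FPKM, and the log2 fold change was -0.50 (SE 0.34, limma adjusted p = 0.508). Foxo1 was at -0.01 without Sox4f/f mouse 1 and at -0.98 without Sox4f/f mouse 2, where the unadjusted limma p was 0.0133. Tbc1d4, the Rab GTPase-activating protein that holds GLUT4 vesicles inside the cell, overlapped between genotypes. It was at 17.7 and 23.9 FPKM in Sox4f/f mice and at 21.6 and 23.3 FPKM in MKO-labelled mice (chromosome 14, 101442360 to 101609191). The log2 fold change was 0.12 (SE 0.18, limma adjusted p = 0.770), within an interval from -0.36 to 0.60.

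Grb10 and Grb14 encode related adaptors that bind the active receptor and dampen it, and Grb10 is also an imprinted gene. Grb10 was at 8.17 and 5.44 FPKM in Sox4f/f mice and at 13.2 and 11.4 FPKM in MKO-labelled mice. Both MKO-labelled values exceeded both Sox4f/f values, with means of 6.81 ± 1.93 and 12.3 ± 1.28 FPKM (SD, n = 2 each), a ratio of 1.81. The log2 fold change was 0.79 (SE 0.22, 95% interval 0.20 to 1.38, limma adjusted p = 0.241), so it did not pass correction. It was 0.69 without the first MKO-labelled mouse and 0.53 without Sox4f/f mouse 2. The unadjusted limma p was 0.0856 without Sox4f/f mouse 2, 0.103 without the first MKO-labelled mouse and 0.0572 without the second. Grb10 also held the lowest single value of any member. The part of muscle RNA in the Grb10 values was not tested. Grb14 was at 20.6 and 35.7 FPKM in Sox4f/f mice and at 25.7 and 16.5 FPKM in MKO-labelled mice. Both MKO-labelled values were under that of Sox4f/f mouse 2, but the first exceeded that of Sox4f/f mouse 1, and the log2 fold change was -0.38 (SE 0.34, limma adjusted p = 0.601). Leaving out Sox4f/f mouse 2 brought Grb14 to -0.00. The ratio of Grb10 to Grb14 was 0.396 and 0.152 in Sox4f/f mice and 0.513 and 0.692 in MKO-labelled mice. Its difference of 1.28 on the log2 scale had no overlap (exact permutation test, p = 0.333), and it ranged from 0.59 without Sox4f/f mouse 2 to 1.97 without Sox4f/f mouse 1. Grb10 lies on chromosome 11 (11930508 to 12038683) and Grb14 on chromosome 2 (64912476 to 65024987), both on the minus strand.

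Grb10 also has 2 RefSeq promoters, shown because gene-level FPKM sums what starts from each of them. Promoter 1 is at chr11:12037421-12037670 and promoter 2 at chr11:12027972-12028221, GRCm38.p6, minus strand. The FoxO, insulin response element and Sox cores and the E-box were not found in them on either strand, so they carry no capitals.
Grb10 promoter 1: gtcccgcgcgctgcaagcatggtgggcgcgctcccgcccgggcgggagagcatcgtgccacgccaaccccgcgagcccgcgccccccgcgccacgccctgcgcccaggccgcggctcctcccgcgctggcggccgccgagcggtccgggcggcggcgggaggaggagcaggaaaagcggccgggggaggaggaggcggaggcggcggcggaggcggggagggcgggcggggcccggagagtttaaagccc
Grb10 promoter 2: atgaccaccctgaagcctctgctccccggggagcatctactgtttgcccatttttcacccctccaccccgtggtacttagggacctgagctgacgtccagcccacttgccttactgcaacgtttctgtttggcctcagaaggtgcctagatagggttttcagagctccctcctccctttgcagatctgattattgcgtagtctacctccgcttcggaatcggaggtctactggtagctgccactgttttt
The FoxO core, TGTTTAC, was found in 1 member promoter, the first of Akt1, 161 bases before the start, and in 3.17% of all promoters of this length.

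**Figure D3:**
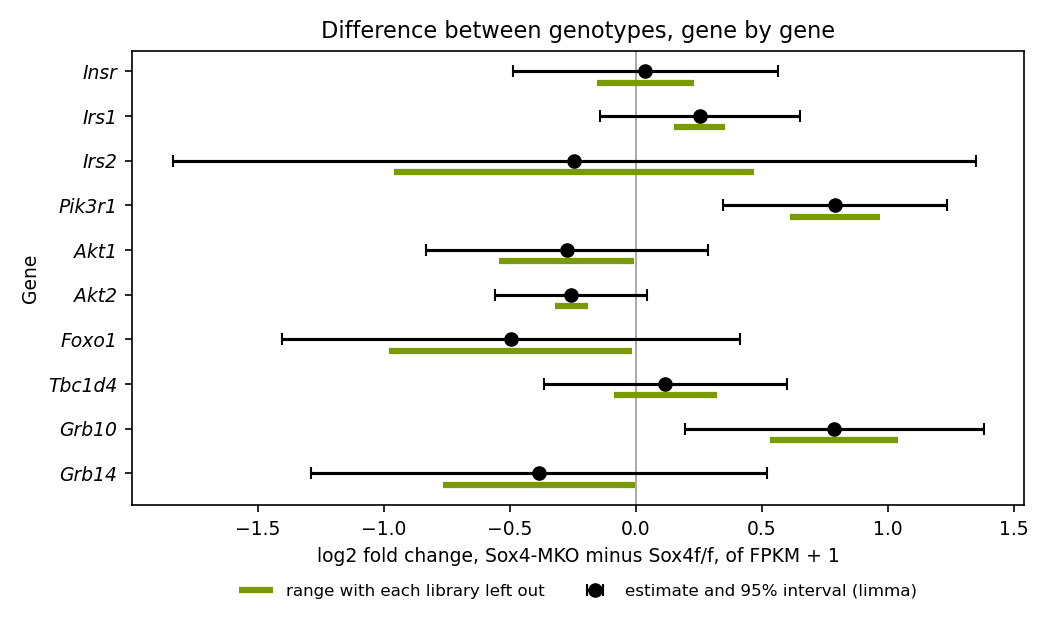
Log2 fold change of FPKM + 1, MKO-labelled minus Sox4f/f, for each of the 10 genes, with the limma estimate and 95% interval in black and the range of estimates with each library left out in green. The intervals of Pik3r1 and Grb10 lie above 0, and those of Irs2, Foxo1 and Grb14 are the widest.

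**Figure D4:**
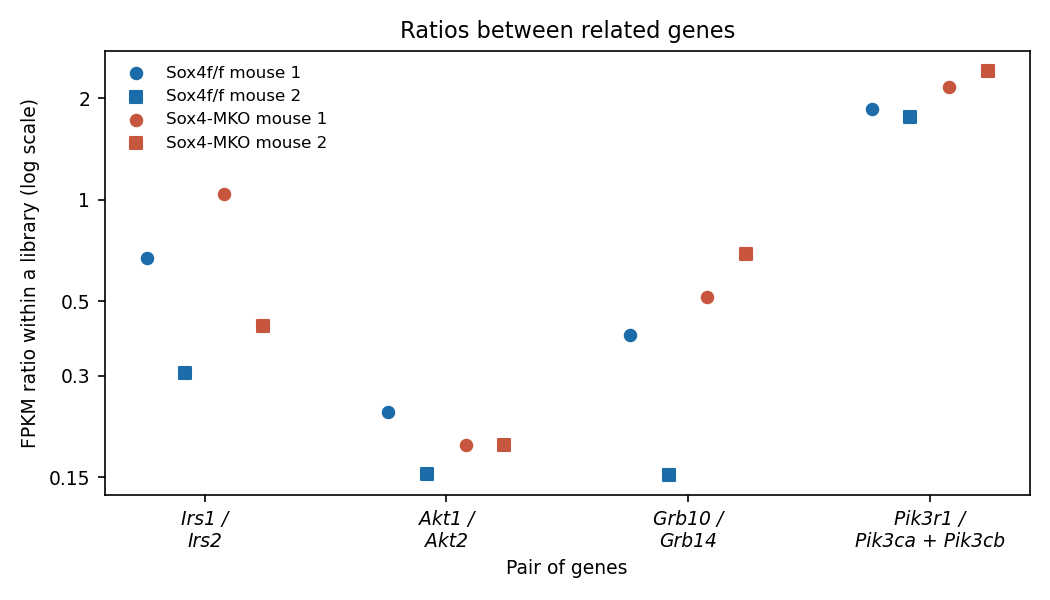
Ratios of FPKM between paired pathway genes in each of the 4 libraries, 1 point per mouse, grouped by genotype. Grb10 to Grb14 and Pik3r1 to its catalytic subunits are higher in both MKO-labelled mice, and the other ratios overlap.

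Another 90 genes of the pathway were grouped by role, and 84 of them passed the limit on low values. None passed an adjusted p of 0.05 in limma, and 13 of 84 (15.5%) had an unadjusted p under 0.05, 5 higher and 8 lower, close to the 16.2% of all tested genes. With either Sox4f/f mouse left out, fewer of the 84 had an unadjusted p under 0.05, and so did fewer of all tested genes. Such a fit leaves 1 mouse in a genotype. The genotypes did not overlap in 33 of 84 (39.3%), against 51.3% of all tested genes, and the median log2 fold change was -0.07. The groups differed little in their medians, from -0.10 for the adaptors and for the 15 genes of GLUT4 vesicle traffic to 0.19 for the PI3-kinase subunits. Of the 11 adaptors, 4 were lower without overlap (29.6% of all tested genes were) and 0 higher (21.7%). Sh2b1, an adaptor that enhances receptor activity, was among the lower ones, at 31.6 and 29.1 against 21.7 and 20.8 FPKM. Of the 19 further kinases and mTOR regulators, 6 were lower and 0 higher without overlap, the lower share being close to that of all genes.

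Of 11 tested genes that restrain the pathway, 3 were lower without overlap and 0 higher. Among all tested genes, 29.6% were lower and 21.7% higher without overlap. Of the 11, 2 had an unadjusted limma p under 0.05, both lower, a share near the 16.2% of all tested genes. Phlpp1, a phosphatase that dephosphorylates AKT, was at 6.73 and 7.26 FPKM in Sox4f/f mice and at 4.31 and 4.25 FPKM in MKO-labelled mice. Its log2 fold change was -0.60 (SE 0.15). Inppl1, the lipid phosphatase SHIP2, was at 45.2 and 43.3 against 33.7 and 31.8 FPKM.

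Slc2a4, which encodes the insulin-responsive glucose transporter GLUT4, was at 209.9 and 227 FPKM in Sox4f/f mice and at 232 and 179.6 FPKM in MKO-labelled mice. The genotypes overlapped, with a log2 fold change of -0.10 (SE 0.16). Vamp2, the vesicle SNARE protein that takes part in GLUT4 fusion, was at 69.3 and 68.8 against 50.5 and 46.7 FPKM. Its log2 fold change was -0.50 (SE 0.11), and it was the 1 gene of GLUT4 traffic with an unadjusted p under 0.05. Pde3b, the phosphodiesterase through which insulin restrains lipolysis, overlapped at 81.4 and 62.0 against 60.0 and 68.3 FPKM.

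FoxO factors and their known target genes held the 2 highest fold changes among the other pathway genes. Trim63 and Fbxo32 encode ubiquitin ligases, MuRF1 and atrogin-1, which are FoxO targets best known from skeletal muscle. Trim63 was at 0.0945 and 1.42 FPKM in Sox4f/f mice and at 18.5 and 5.57 FPKM in MKO-labelled mice. Its log2 fold change was 2.80 (SE 0.66, limma adjusted p = 0.214), and without Sox4f/f mouse 1 it was 2.22 with an unadjusted limma p of 0.0706. Its Sox4f/f mean was under the limit of 1 FPKM, so Trim63 was tested only because it was higher in MKO-labelled mice. Fbxo32 was at 1.78 and 1.59 against 10.05 and 4.58 FPKM. The log2 fold change of Fbxo32 was 1.55 (SE 0.37), or 1.06 without the first MKO-labelled mouse. Both were highest in the first MKO-labelled mouse, the library with 20001 FPKM of skeletal muscle markers, and next highest in the second with 4063 FPKM. The part of muscle RNA in these values was not tested. Gadd45a, a FoxO target in the stress response, was at 2.31 and 2.92 FPKM in Sox4f/f mice and at 7.05 and 5.53 FPKM in MKO-labelled mice, with a log2 fold change of 1.01 (SE 0.21, limma adjusted p = 0.207). Pdk4, the FoxO target that inhibits pyruvate dehydrogenase, went the other way, at 744 and 701 against 412 and 536 FPKM. Its log2 fold change was -0.62 (SE 0.17). Of the 15 tested FoxO factors and targets, 3 were higher and 1 lower at an unadjusted p under 0.05, where 7.95% of all tested genes were higher and 8.28% lower, and the median was 0.04. The 3 include Trim63, which passed the limit through the MKO-labelled mice alone.

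Among 8 metabolic effectors of insulin is Pck1, which encodes an enzyme on the route to glycerol phosphate for fat synthesis in adipose tissue. Pck1 was at 1524 and 1746 FPKM in Sox4f/f mice and at 951 and 1264 FPKM in MKO-labelled mice. Its log2 fold change was -0.57 (SE 0.19), or -0.37 without the first MKO-labelled mouse, and the unadjusted limma p was no longer under 0.05 without that mouse or without either Sox4f/f mouse. Srebf1, the lipogenic transcription factor induced by insulin, was at 88.7 and 111 against 144.8 and 131 FPKM. Acly and Acaca, enzymes that supply and commit acetyl-CoA to fat synthesis, were named after their values were seen. Acly was at 168 and 517 FPKM in Sox4f/f mice and at 642 and 591 FPKM in MKO-labelled mice, and Acaca at 173 and 342 against 471 and 406 FPKM. Both were higher without overlap but low mainly in Sox4f/f mouse 1, and neither had an unadjusted p under 0.05. Fasn, fatty acid synthase, had 652 FPKM in the first Sox4f/f library and was listed at 0 in the 3 remaining ones. It is among the tested genes counted here and had no unadjusted p under 0.05, and no fold is given for it. The median of this group was 0.11 with Fasn and 0.15 without it.

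**Figure D5:**
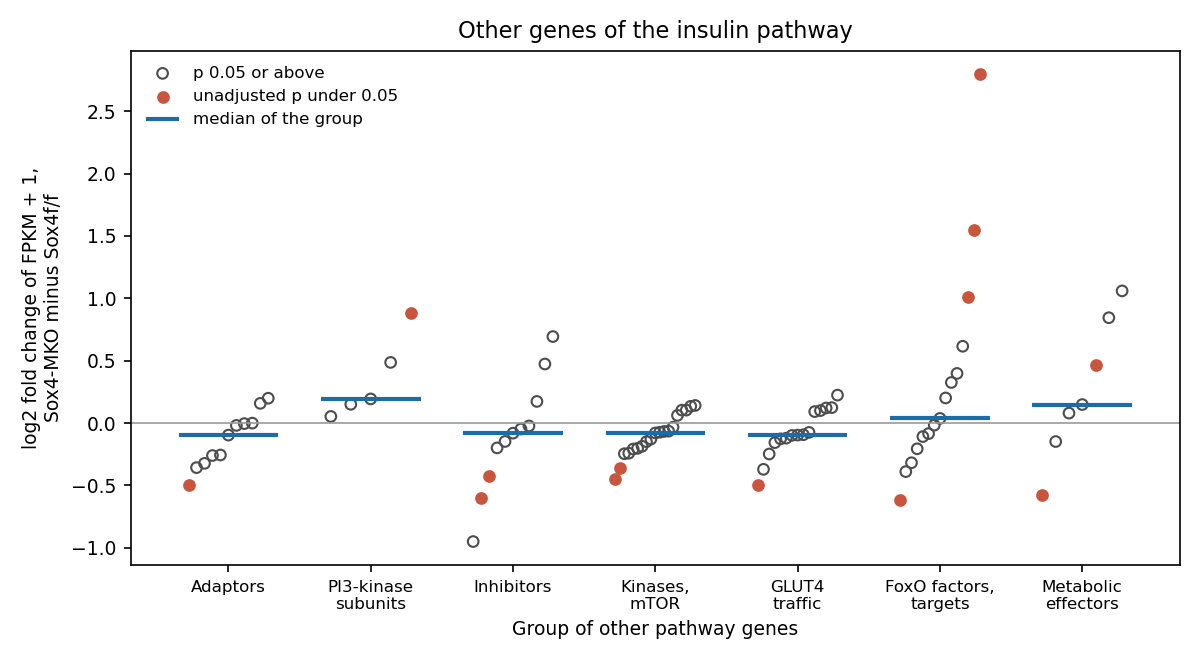
Log2 fold change of FPKM + 1, MKO-labelled minus Sox4f/f, of each other tested pathway gene by role, 1 point per gene, with filled points for an unadjusted p under 0.05 and a line at each group's median. Fasn, listed at 0 in 3 libraries, is left out, and Trim63 at 2.80 is the highest point.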

How the data were processed

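BAT RNA from 4 mice was sequenced as paired ends on an Illumina HiSeq. The labels name a column kit and a stranded mRNA library kit, and the study's methods name others. The authors deposited 1 table of FPKM per gene and library. Cufflinks 2.1.1, Cuffdiff and the mm10 build stand in the submitters' processing notes, without their roles. The aligner and annotation are not given in the sources used here. The files hold FPKM, not counts, so no count model was run, and the number of fragments behind a value is only an estimate from the lowest values of each library, covering counting error only. Each genotype holds 2 mice, with littermates across genotypes that were not paired in the main fit. The limma p-values rest on the spread between these mice, moderated by that of all tested genes.

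Genes whose mean deposited FPKM was above 1 in at least 1 genotype were tested on log2(FPKM + 1) with limma 3.58.1 (R 4.3.3), two-sided, without a block, with a variance trend, moderated across 12877 genes and adjusted by Benjamini-Hochberg over all of them. The pseudocount understates changes of low genes. Ratios were tested by exact two-sided permutation, for which 2 against 2 mice allow no p under 0.333. The scripts were tested on simulated data, in which 200 of 12877 genes were changed by 1 log2 unit. At an unadjusted limma p under 0.05, 86.5% of these were recovered, but 0% at an adjusted p under 0.05. Missing the adjusted limit therefore does not show that a gene is unchanged. The members and gene lists were chosen with earlier results of these data known. Named were the 10 members, Sox4, Igf1r, Slc2a4 and Pde3b, the 3 profiles nearest to Insr, and, of the other pathway genes, the 4 with the largest fold change in each direction among those without overlap and with an unadjusted p under 0.05. Genes named outside this rule (Sh2b1, Inppl1, Srebf1, Pik3ca and others said to be so) were chosen after their values were seen. Alternatives were pseudocounts of 0.1 and 0.01, no filter, and a limit of 5 FPKM on the mean over all 4 libraries. Others were scaling to a common median, quantile normalization, and FPKM rescaled after removal of mitochondrially encoded genes and Ucp1. A replicate block and the removal of each library in turn were also run. The removal of genes listed at 0 in any library was added after seeing the data. Annotated genes overlapping the members had at most 1.49 FPKM, and reads of opposite strands may not have been told apart. Positions are from GENCODE on GRCm38 and promoters from RefSeq on GRCm38.p6. ChIP-seq was not analysed here, and 1 further gene fixed by the naming rule is not reported here.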

Additional observations from a re-analysis of the deposited data

How the results depend on the processing

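With all 4 libraries kept, the 90 recomputed fold changes of the members kept their direction and their side of an unadjusted p of 0.05. The changes of filter and the replicate block cannot alter a fold change, so in those settings only the p could move. No member and no other pathway gene passed an adjusted p of 0.05 in limma under any alternative, while 1 other gene did without Sox4f/f mouse 1 and 4 did without Sox4f/f mouse 2. At an unadjusted p under 0.05, 2 members were higher and 0 lower, and with each library left out the members ranged from 0 to 2 higher and from 0 to 2 lower. Of the other pathway genes, 5 were higher and 8 lower. Both counts moved with each library left out, and so did those over all tested genes. After rescaling without mitochondrially encoded genes and Ucp1, 8 other pathway genes were higher, and Igf1r moved to 0.034. Leaving out each library gave log2 ranges that crossed 0 for Insr (-0.15 to 0.23), Irs2 (-0.96 to 0.47), Tbc1d4 (-0.088 to 0.32), Igf1r (-0.14 to 0.10), Slc2a4 (-0.28 to 0.084), Pde3b (-0.34 to 0.045), Sox4 (-0.32 to 0.71), Irs1 to Irs2 (-0.11 to 1.20) and Akt1 to Akt2 (-0.33 to 0.28). The Grb10 to Grb14 difference ranged from 0.59 to 1.97 and that of Pik3r1 to its catalytic subunits from 0.26 to 0.42. Pck1 was at -0.35 and Pdk4 at -0.43 under quantile normalization, neither with an unadjusted p under 0.05, and Pck1 also lost it with no filter and after the rescaling. Leaving out Sox4f/f mouse 1 left Pik3cb, Phlpp1, Vamp2, Pdk4, Fbxo32, Trim63 and Pck1 with an unadjusted p above 0.05, and leaving out Sox4f/f mouse 2 did so for Phlpp1, Vamp2, Pdk4, Fbxo32 and Pck1. Phlpp1 was also above it without the second MKO-labelled mouse. The cause of these shifts was not tested.

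What mice of the same number share beyond it is not given in the sources used here. The correlation of their deviations was -0.0122 over 12877 genes, which does not speak for single genes. The SE of the Irs2 fold change was 0.16 with the number as a block and 0.60 without, while that of Pik3r1 was 0.18 against 0.17. With the number as a replicate block, 2 members stayed higher and 0 lower at an unadjusted p under 0.05, with limma p-values of 0.0142 for Pik3r1 and 0.0114 for Grb10, and 6 other pathway genes were higher and 9 lower. With 2 mice per genotype, the interval of Irs2 (-1.84 to 1.35) took in changes of over 1 log2 unit in both directions. Those of Foxo1 (-1.40 to 0.41) and Grb14 (-1.29 to 0.52) took in falls of over 1 log2 unit but not rises.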
